A study of Drosophila melanogaster with 2 samples.

Results

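Bigmax occupancy was described at 9 *Drosophila melanogaster* chaperone genes of 13945 protein-coding genes on the main chromosome arms. The 9 were taken by name: the constitutive chaperones Hsp83, Hsp60A, Hsc70-3, Hsc70-4 and Hsc70-5, and the heat-inducible small heat shock genes Hsp22, Hsp23, Hsp26 and Hsp27. Chaperones help other proteins to fold and keep unfolded ones from clumping. Constitutive chaperones do this in unstressed cells, in the cytosol, the endoplasmic reticulum or mitochondria, whereas the small heat shock genes are switched on strongly by heat through heat shock factor, a protein that binds inverted repeats of GAA, and some of them also during development. Bigmax, the fly relative of Mlx, is a DNA-binding partner of the sugar-responsive factor Mondo. The pair binds E-box elements, of which CACGTG is the best known form.

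The assay was chromatin immunoprecipitation followed by sequencing (ChIP-seq) on 1 group of 2 biological replicates, numbered 3 and 4, each labelled technical replicate 1. Both came from a transgenic line that stably carries Bigmax joined at its C-terminal end to GFP, as whole embryos of both sexes aged 0 to 24 h, with chromatin sonicated to 200 to 800 bp. The labels name no heat shock, no second genotype and no promoter for the fusion, and a peak from whole embryos does not show which cells or ages bound the protein. The labels' free text describes both samples as input controls, whereas the antibody field names Bigmax and the deposited notes describe the lists as peaks called against a control, so the lists were read as Bigmax peaks.

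Every line of a list is a peak with a summit position and a signal. The signals are the authors' values, on the caller's scale. The reproducible list, named by the authors as thresholded by irreproducible discovery rate (IDR, which scores peaks by how alike their replicates rank them), held 1949 peaks with signals from 111.0 to 6951. Its lines were the 1949 strongest of the pooled list, so membership followed pooled signal, and some listed peaks ranked far apart in the replicates. "Reproducible" below means in this list. The relaxed lists of the pooled reads, of replicate 3 and of replicate 4 each held 30000 peaks, so they reach far into background. Signals were compared within a list, and lists were compared by rank, where rank 1 is the strongest peak. Read counts were not analysed here, so the depth behind a peak is unknown.

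A promoter summit was one within 500 bp of any annotated start of a gene. A reproducible promoter summit lay at 5 of the 9 genes, against 11.2% of all protein-coding genes. The 5 were Hsp83, Hsp60A and Hsc70-5 of the 5 constitutive genes, and Hsp26 and Hsp27 of the 4 small heat shock genes, so the classes had shares of 3 in 5 and 2 in 4. Every gene of both classes had a promoter summit in each relaxed list, where the share of all genes was 56.7% in the pooled list, 54.7% in replicate 3 and 55.1% in replicate 4. Genes with more annotated starts have wider windows: 8.16% of genes with 1 start, 16.9% of those with 2 and 25.4% of those with 3 or more had a reproducible promoter summit. Hsp23 and Hsp27 had 1 start, Hsc70-3 had 4 and Hsc70-4 had 6, and the remaining 5 genes had 2. The part of the number of starts in the members' counts was not tested.

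By pooled signal the strongest promoter summits stood in the order Hsp60A (805), Hsp83 (563), Hsp27 (223), Hsp26 (188), Hsc70-5 (159), Hsc70-4 (89.5), Hsc70-3 (83.3), Hsp22 (79.2) and Hsp23 (50.4). The constitutive genes spanned 83.3 to 805 with a median of 159, and the small heat shock genes spanned 50.4 to 223 with a median of 133. The ranges overlapped: the strongest pair was constitutive and the weakest pair was small heat shock, with both classes in between. Over the 7907 genes with a pooled promoter summit the median was 61.2, and 8 of the 9 genes lay above it.

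**Figure D1:**
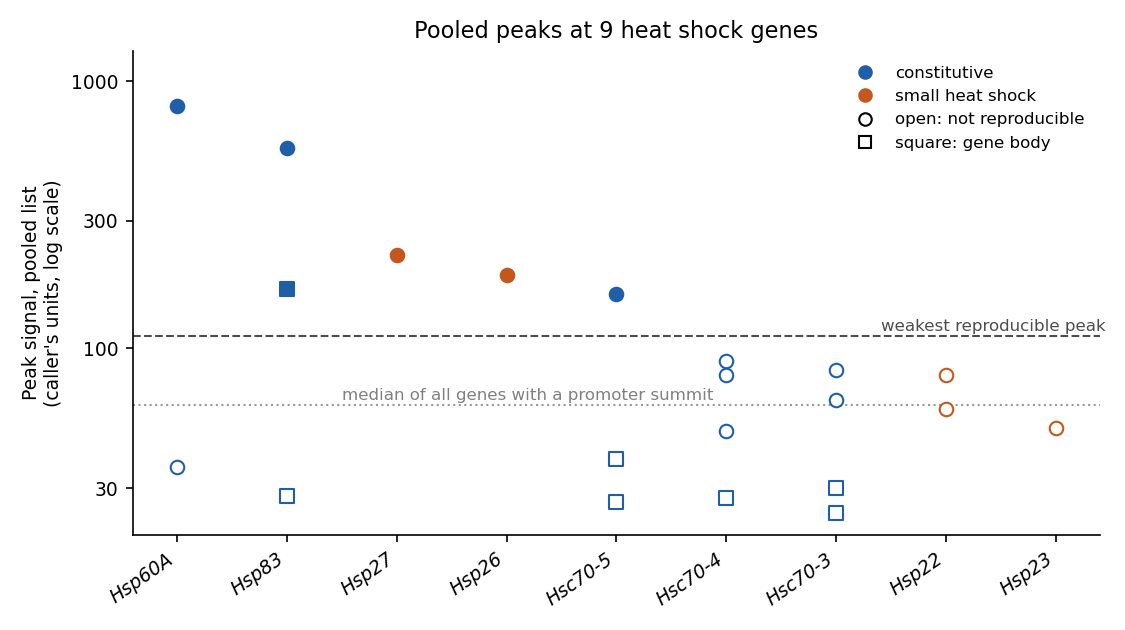
Signal of every pooled peak (caller's units, log scale) whose summit lay in the promoter window (circles) or deeper in the body (squares) of each gene, blue for constitutive and orange for small heat shock genes, filled where the peak was in the reproducible list. The dashed line is the weakest reproducible peak (111.0) and the dotted line the median over all genes with a promoter summit (61.2); 5 genes have a filled circle, and Hsp83 alone also has a filled square.

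Hsp60A encodes the mitochondrial chaperonin, a barrel that folds proteins imported into the matrix. Its summit lay 6 bp before the start of the gene (chrX:11108482-11112308, plus strand, dm6), with a pooled signal of 805 at rank 105. The signal was 474 in replicate 3 and 340.4 in replicate 4, at rank 111 in both lists. This promoter signal exceeded those of 98.9% of the genes with a pooled promoter summit. A weaker pooled summit of 36.0 (rank 14966) lay 193 bp after the start, matched in replicate 3 by 1 of 33.9 at 205 bp. The stretch beside the strong summit is shown because it holds AGGTTA, in capitals, the word that stood in 19.75% of the 101 bp summit windows of all reproducible peaks and in 4.53% of those of the pooled list. Its centre was 16.5 bp downstream of the summit (chrX:11108478-11108507, plus strand, dm6).
Hsp60A: cgatacacattaAGGTTAggaagttcggac

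Hsp83 encodes the fly Hsp90, which holds kinases and steroid receptors in an activatable state. It is abundant without stress and rises further on heating. Its strongest summit lay 87 bp before the second of its 2 starts, inside the 5′ UTR of the longer transcript (gene at chr3L:3192969-3197059, plus strand). The pooled signal was 563 at rank 172, with 284 at rank 216 in replicate 3 and 279 at rank 147 in replicate 4. Hsp60A and Hsp83 were thus the 2 highest in every list, and Hsp83 exceeded 98.0% of genes with a promoter summit. Its summit stood beside a heat shock element core, GAANNTTC, whose centre was 22.5 bp downstream. It was the single match to either core in the windows around the strongest summits of the 9 genes, and GAANNTTC was found in 2.62% of all reproducible and 2.43% of all pooled summit windows. The stretch is shown with the core in capitals (chr3L:3193137-3193166, plus strand, dm6).
Hsp83: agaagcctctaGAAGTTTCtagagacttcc

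Hsp83 also carried the 1 reproducible peak that lay in a gene body, taken as more than 500 bp from every start of the gene. This peak stood in an intron 1045 bp after the second start (chr3L:3194061-3194460), with a pooled signal of 167 at rank 933. It ranked 1719 in replicate 3 and 744 in replicate 4. Its window was 18.8% G and C, the lowest of the 21 pooled summit windows at the 9 genes, and held none of the 7 motifs searched. Of all genes, 3.31% had a reproducible body summit, and 1 of these 9 did.

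Hsc70-4 encodes the main cytosolic Hsc70, which also strips clathrin from vesicles, and Hsc70-3 encodes BiP, the Hsp70 of the endoplasmic reticulum. Neither had a reproducible peak. Hsc70-4 (chr3R:15242687-15246614, plus strand) had 3 pooled promoter summits: 89.5 at rank 2990 lay 8 bp before the first start, 79.3 at rank 3775 lay 436 bp after another start, and 48.9 at rank 8801 lay 74 bp after a later one. The first had 59.6 at rank 2336 in replicate 3 and 49.0 at rank 2441 in replicate 4, while the others ranked higher in replicate 3 (2206 and 4975) than in replicate 4 (7872 and 29738). The first summit also lay within the window of tefu, the gene for the fly ATM kinase, 443 bp before its start. Only the first summit lay close to a start with similar ranks in both replicates. The second lay in an intron, and the third was near the end of the replicate 4 list. The bases before the first start are shown for the TATA box in capitals (chr3R:15242629-15242686, plus strand, dm6), and the window of the second summit for the CACGTG at its edge, the single E-box of this form in the 14 promoter summit windows (chr3R:15243584-15243684, plus strand, dm6). CACGTG was found in 2.72% of all reproducible and 1.57% of all pooled summit windows.
Hsc70-4, first start: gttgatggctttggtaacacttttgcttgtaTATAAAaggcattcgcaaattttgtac
Hsc70-4, second summit: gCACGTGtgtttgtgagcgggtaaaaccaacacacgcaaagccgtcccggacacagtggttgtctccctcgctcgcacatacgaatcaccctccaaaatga

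Hsc70-3 (chrX:11801696-11807117, minus strand) had pooled summits of 83.3 at rank 3457 and 64.0 at rank 5528, lying 6 and 12 bp before 2 of its 4 starts. The first had 45.2 at rank 3990 in replicate 3 and 31.9 at rank 5856 in replicate 4. The second ranked 4154 in replicate 3 and 27121 in replicate 4, near the end of that list. Both summits were thus close to a start but outside the strongest peaks of either replicate. The −log10 q-value of the strongest summit was 2.41 at Hsc70-4 and 2.23 at Hsc70-3, against 3.64 for every reproducible peak.

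Hsc70-5 encodes the mitochondrial Hsp70, which draws imported proteins into the matrix. Its summit lay 235 bp before the start (gene at chr2R:14252598-14256192, minus strand), with a pooled signal of 159 at rank 1018. The replicates placed it differently: 105 at rank 813 and 200 bp upstream in replicate 3, and 54.4 at rank 1976 and 128 bp upstream in replicate 4. Rank 1976 is beyond the length of the reproducible list, so by the replicate 4 list alone the gene would not be among the strongest 1949. The pooled summit was nearer to the start of the neighbouring gene CG8531, at 66 bp, and a peak of this kind cannot be assigned to 1 gene of the pair by distance alone. An AGGTTA lay 38.5 bp from the summit towards the gene.

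**Figure D2:**
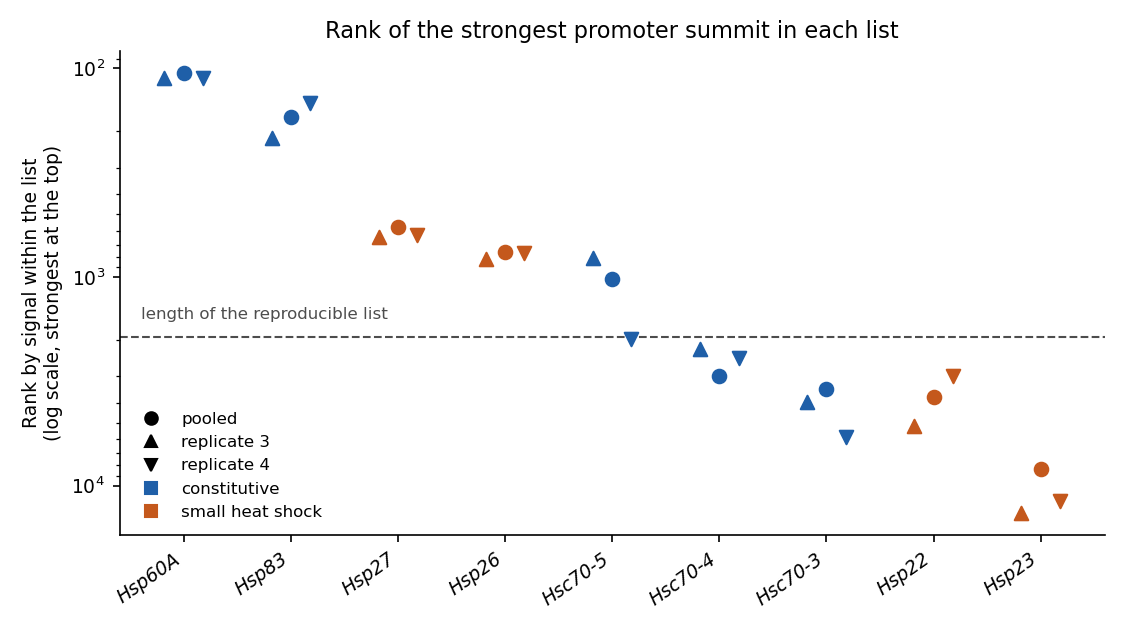
Rank of the strongest promoter summit of each gene within the pooled list (circle), replicate 3 (upward triangle) and replicate 4 (downward triangle), on a log axis with the strongest at the top; blue marks constitutive and orange small heat shock genes. The dashed line is the length of the reproducible list (1949); Hsp60A, Hsp83, Hsp27 and Hsp26 lie above it in all 3 lists and Hsc70-5 in 2 of 3.

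Hsp27 and Hsp26 carried the reproducible small heat shock peaks. Hsp27 is a small heat shock protein found in the nucleus, and Hsp26 is cytosolic; both are also expressed in unstressed ovaries. The Hsp27 summit lay 136 bp before its single start (gene at chr3L:9384063-9385694, plus strand), with a pooled signal of 223 at rank 577. It had 119 at rank 645 in replicate 3 and 99.5 at rank 631 in replicate 4. The Hsp26 summit lay 27 bp after the nearer of its 2 starts, in the 5′ UTR (gene at chr3L:9376418-9377427, minus strand), with a pooled signal of 188 at rank 756, 104 at rank 824 in replicate 3 and 89.2 at rank 769 in replicate 4. The 3 ranks of each gene were close. Hsp27 exceeded 94.0% and Hsp26 92.25% of the genes with a promoter summit.

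None of the 7 motifs lay wholly within 50 bp of either summit, although a TATAAA straddled the edge of the Hsp26 window. The Hsp27 window is shown because it is the strongest summit here with none of them and lies outside any UTR (chr3L:9383877-9383977, plus strand, dm6). The 230 bases before the upstream Hsp26 start are shown for the elements they hold, in capitals (chr3L:9377428-9377657, minus strand, dm6): in order, the heat shock core TTCTCGAA, an AGGTTA, overlapping TATAAA words on both strands, the heat shock core GAAATTTC and runs of CTCTC, which is GAGAG on the other strand, the word bound by GAGA factor. The Hsp26 summit lay downstream of all of them. It also lay downstream of a heat shock core TTCTAGAA and a TATAAA, at -49 and -28 bp from the nearer start.
Hsp27: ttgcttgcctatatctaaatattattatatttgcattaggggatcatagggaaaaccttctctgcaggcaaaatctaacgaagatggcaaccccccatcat
Hsp26: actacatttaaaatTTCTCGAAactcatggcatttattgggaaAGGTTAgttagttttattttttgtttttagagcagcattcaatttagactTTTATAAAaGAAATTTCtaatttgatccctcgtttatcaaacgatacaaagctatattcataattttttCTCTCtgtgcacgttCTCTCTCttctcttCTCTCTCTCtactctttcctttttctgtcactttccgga

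Hsp22 and Hsp23 had only relaxed peaks. Hsp22 is a mitochondrial small heat shock protein, and Hsp23 is cytosolic. Hsp22 (chr3L:9372931-9374964, plus strand) had a pooled summit of 79.2 at rank 3781, 382 bp before its second start and in the 5′ UTR of its longer transcript. This peak had 34.0 at rank 6934 in replicate 3 and 44.9 at rank 2969 in replicate 4. A second summit of 59.1 at rank 6383 lay 20 bp before the first start, and it was shared with CG4456, also 20 bp before one of its starts, and with Hsp67Bc, 414 bp before its start. Hsp23 (chr3L:9381882-9382765, plus strand) had 1 pooled summit, 240 bp before its start, with 50.4 at rank 8352. It had 23.9 at rank 13548 in replicate 3 and 21.8 at rank 11808 in replicate 4. Hsp23 was the weakest of the 9 in every list and the only 1 below the median of all genes with a promoter summit, above 38.7% of them. Its −log10 q-value was 1.15, and that of Hsp22 was 2.08. The Hsp23 window is shown for comparison with the one at Hsp27 (chr3L:9381592-9381692, plus strand, dm6), with its CTCTC in capitals.
Hsp23: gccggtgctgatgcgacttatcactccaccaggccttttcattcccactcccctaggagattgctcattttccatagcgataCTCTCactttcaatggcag

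**Figure D3:**
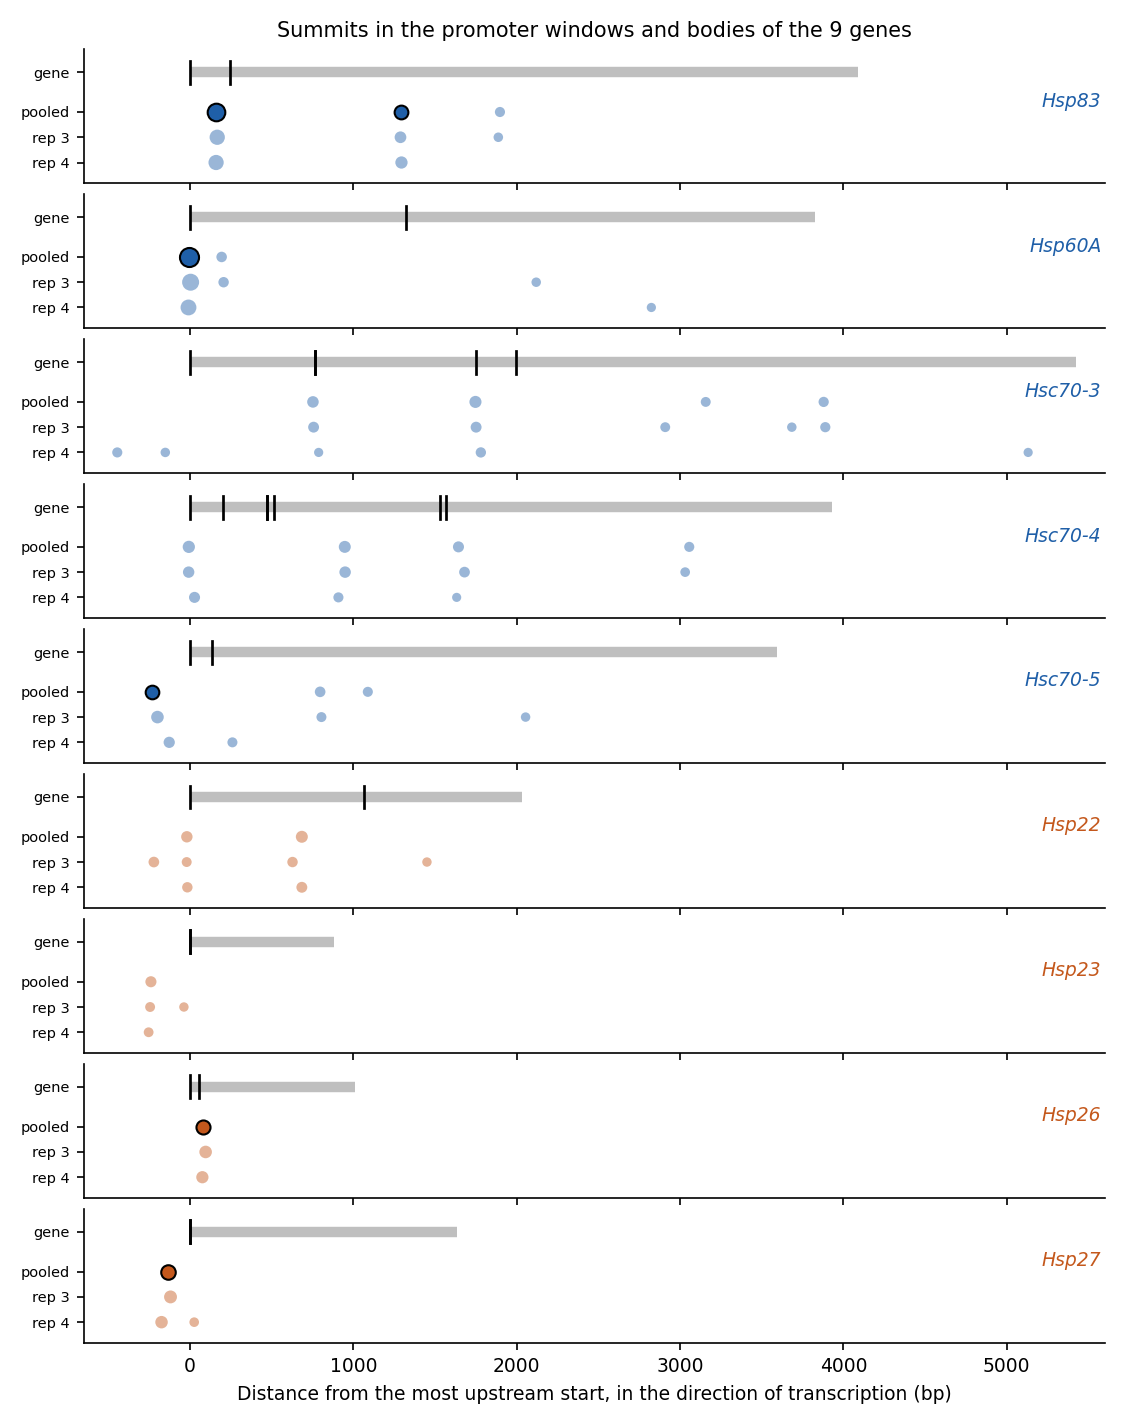
Summits in the promoter windows and bodies of the 9 genes, by distance in bp from the most upstream start, for the pooled list and both replicates; the grey bar is the gene, vertical ticks are annotated starts, dot area grows with signal, and dots with a black edge are reproducible. Hsp60A, Hsp26 and Hsp27 have their reproducible dot near a start, that of Hsc70-5 lies 235 bp before its start, and Hsp83 has 2. Hsc70-3 and Hsc70-4 have several dots, none of them reproducible.

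The pooled list held 14 promoter and 7 body summits at the 9 genes. Body summits occurred in 4 of the 5 constitutive genes and in 0 of the 4 small heat shock genes, where 37% of all genes had one. The small heat shock genes are short and offered only 2503 bp beyond their promoter windows, against 13434 bp in the constitutive genes, whose 7 summits came to 0.521 per kb. Over all genes the density was 0.198 per kb, and the small heat shock genes' stretch is too short for its count of 0 to show a difference between the classes. Apart from the Hsp83 intron peak, the body summits were weak, from 24.2 to 38.4. Of these 6 weak summits, 4 had a partner in the replicate 3 list and 0 in the replicate 4 list.

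The 4 small heat shock genes lie in the 67B cluster on the left arm of chromosome 3, within 12764 bp (chr3L:9372931-9385694). That span held 5 pooled summits, of which the 2 at Hsp26 and Hsp27 were reproducible. CG4456 and Hsp67Bc had the shared summit of 59.1, and Hsp67Ba and CG4461, other small heat shock genes of the cluster, had no promoter summit in the pooled list. The strongest peak nearby belonged to Fdx1, a ferredoxin gene at the edge of the cluster that was picked after its value was seen. Its signal was 1242 at rank 60, with rank 57 in replicate 3 and 54 in replicate 4, 6389 bp from the start of Hsp26 (chr3L:9370766-9371396). The Fdx1 summit lies outside the span of the 4 genes. Inside the span the 5 pooled signals ran from 36.5 to 223. Whether other stretches of this length vary as much was not tested.

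**Figure D4:**
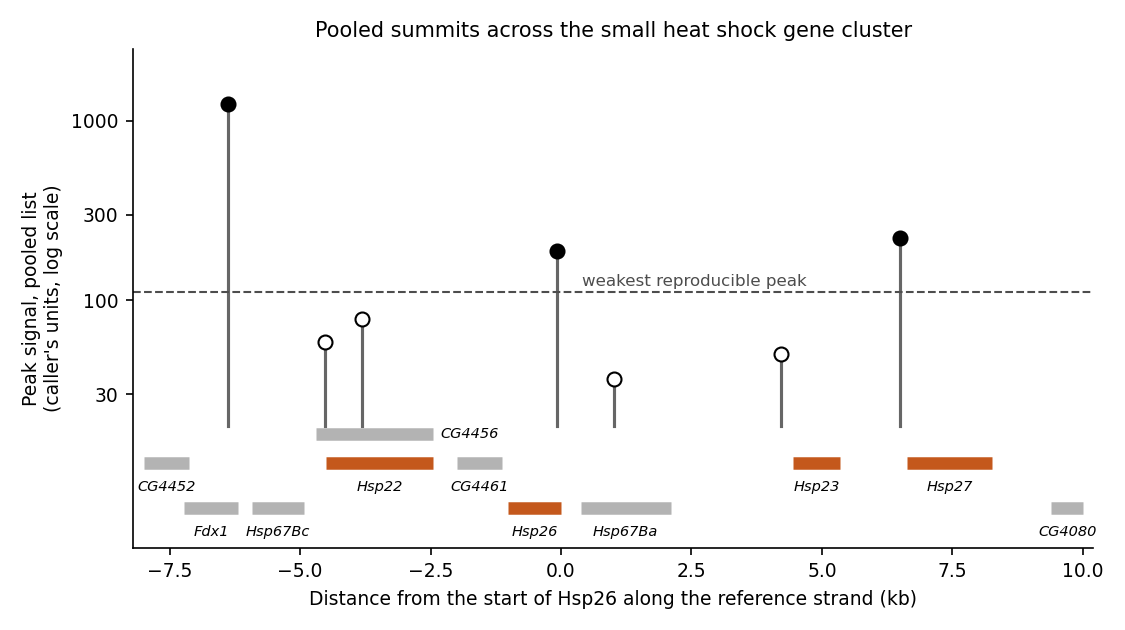
Pooled summits (stems, caller's units, log scale; filled where reproducible) against distance in kb from the start of Hsp26, with genes below (orange for the 4 small heat shock genes, grey for others; middle row plus strand, lowest row minus strand, CG4456 drawn above because it overlaps Hsp22). Fdx1 has the tallest stem (1242), and Hsp27 (223) and Hsp26 (188) lie above the dashed line of the weakest reproducible peak.

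The motif search covered the 300 bp around each start, from 250 bp before to 50 bp after, on both strands. GAANNTTC and TTCNNGAA, the cores of the heat shock element, read the same on both strands and were found in 9.33% and 7.61% of 19253 promoters of all genes. The 9 genes had 22 promoters, some of which overlap. GAANNTTC stood in 9 of these 22, from 3 constitutive genes and 3 small heat shock genes, and TTCNNGAA in 7, from 2 genes of each class. CACGTG, in 4.02% of all promoters, stood in 3 of the 22, 1 each of the constitutive genes Hsp60A, Hsc70-3 and Hsc70-4, and in none of the small heat shock genes. None of these promoter matches lay wholly within the 101 bp window of a pooled summit, although the one at Hsc70-3 straddled a window's edge. The E-box in the second Hsc70-4 summit window is another site, outside the 300 bp searched. AGGTTA, in 6.81% of all promoters, stood in 4 of the 22, at Hsp60A, Hsc70-5 and Hsp26. TATAAA, in 42.2% of all promoters, stood in 17 of the 22, from all 9 genes, and GAGAG, in 33.1%, in 12 of the 22, from 3 genes of each class. TATCGATA, the element bound by DREF, stood in 1 of the 22, at Hsp83, with a share of 7.98% over all promoters. Genes with more starts had more promoters to search, and these matches are descriptions of letters.

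The members were set beside 47 other chaperone and co-chaperone genes. Of these, 29 (61.7%) had a pooled promoter summit, near the 56.7% of all protein-coding genes. A reproducible promoter summit lay at 9 (19.1%), against 11.2% of all protein-coding genes. By pooled signal these were p23 (1069, rank 74) and CG1416 (499, rank 206), an Hsp90 co-chaperone and a relative of the Hsp90 activator Aha1; Hsp110 (257) and Gp93 (226), the Hsp90 of the endoplasmic reticulum; and Stip1 (172), DnaJ-60 (170), DnaJ-1 (167), Sgt1 (161) and Csp (118). Stip1 links Hsp70 to Hsp90, and Csp, DnaJ-1 and DnaJ-60 belong to the DnaJ co-chaperones that stimulate Hsp70. DnaJ-60 shares its summit with spag, whose start lay nearer, at 11 bp. The Hsp110 peak had a partner at rank 515 in replicate 3, and no replicate 4 peak met the overlap required of a partner. The same rule gave Hsp27 no partner in either replicate, although both lists held a summit in its promoter window. Whether a replicate 4 peak overlapped the Hsp110 peak by less was not tested. CG2790, with 111.0 at rank 1950, was the first peak after the reproducible list ended. By group, 3 of 10 DnaJ genes and 4 of 11 co-chaperones were reproducible, as was 1 of 2 other Hsp90 genes and 1 of 3 other Hsp70 and Hsp110 genes. None of 5 other Hsp60 and Hsp10 genes, 4 other genes of the 67B cluster, 4 small heat shock genes elsewhere or 7 inducible Hsp70 genes was reproducible.

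Among the inducible Hsp70 genes, Hsp68 had a summit of 104 at rank 2258, 5 bp before its start. It ranked 4471 in replicate 3 and 2253 in replicate 4. The 6 copies of Hsp70, Hsp70Aa, Hsp70Ab, Hsp70Ba, Hsp70Bb, Hsp70Bbb and Hsp70Bc, had no promoter summit in the pooled list. Of the 50-base words within 500 bp of their starts, 57.5% to 100% occur elsewhere in the genome, where reads of that length cannot be placed uniquely. The share was 0% at Hsp68 and at each of the 9 genes. The part of repeated sequence in the missing peaks was not tested. Hsf, the heat shock factor gene itself, had a pooled summit of 59.0 at rank 6399.

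**Figure D5:**
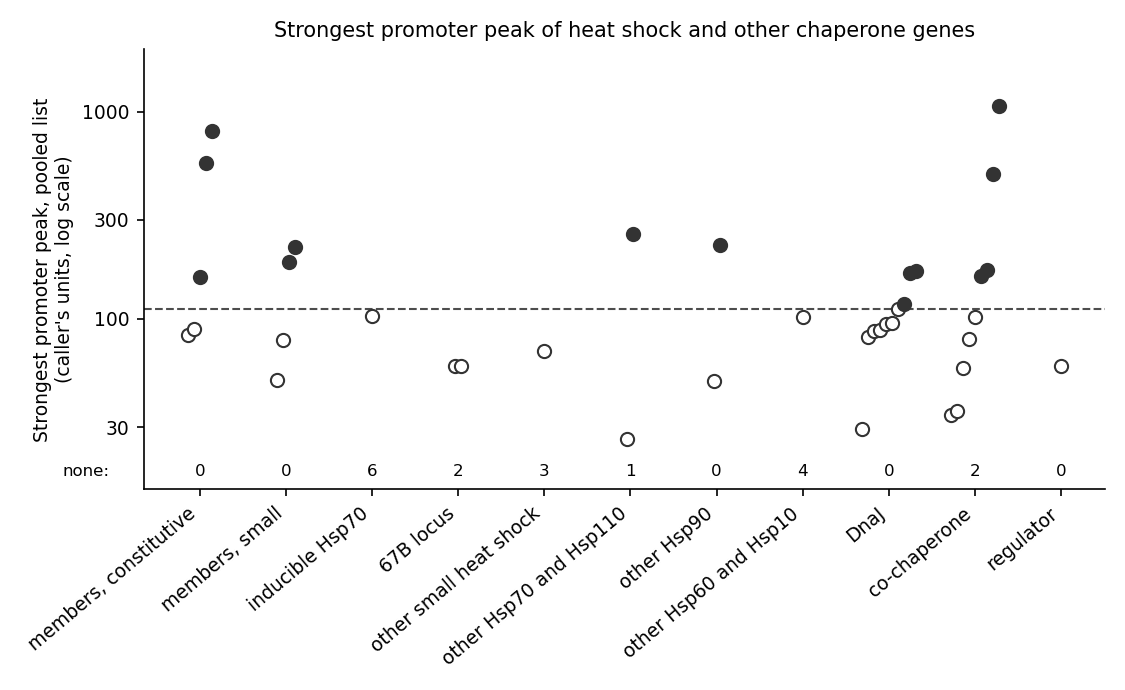
Strongest pooled promoter signal (caller's units, log scale) of each gene of the constitutive and small heat shock classes and of 47 other chaperone genes by group, filled where reproducible; numbers along the bottom count genes with no promoter summit. The dashed line is the weakest reproducible peak (111.0), and p23 (1069) is the highest point.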

How the data were processed

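The peaks were deposited by the authors as 4 narrowPeak lists of ChIP-seq on dm6: the reproducible list (IDR-thresholded), and relaxed lists of the pooled reads, replicate 3 and replicate 4, per the deposited notes. The signal per peak and the −log10 q-value per peak are the deposited values. For the peak caller, its version, the aligner and any filters, nothing is given in the sources used. The −log10 q-value is 3.64 on every line of the reproducible list, so only signal was used for ranking, and the reproducible list equals the 1949 strongest pooled lines.

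Gene models were Ensembl release 115 (FlyBase 6.54) on Release 6, whose arm lengths match dm6, and the printed bases are its reference sequence. Summits were assigned to every gene with a start within 500 bp, and to gene bodies beyond that, with Python 3.11.15 and pandas 2.3.3. The script was tested on simulated peaks with known answers. A replicate peak was the partner of a pooled peak when the overlap was at least 50% of both. Distances count the start as 0.

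With 1 group of 2 replicates and genes picked by name, no test was made. The members, lists and motifs were chosen with earlier results of these data known. Genes were named by a rule: all 9 members; of the other chaperones, those with a reproducible promoter peak (up to 10), the inducible Hsp70 genes and those of the 67B cluster; and any gene that shares a summit with a member. Hsf, CG2790 and Fdx1 were added after their values were seen. Also outside the rule were spag, which shares the DnaJ-60 summit, and CG14966, the neighbour of a peak past the end of Hsp83. Listed names Hsp67Bb, Hsc70Cb and l(2)tid were matched to CG4456, Hsp110 and CG5504 by RefSeq synonyms; the last is also a synonym of Alg3. CG7409 was listed with the 67B genes but lies 1.618 Mb away and was counted with the other small heat shock genes. Alternatives were other windows, list lengths, single replicates, nearest start, any base of the peak and, added after seeing the data, canonical starts.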

Additional observations from a re-analysis of the deposited data

How the results depend on the processing

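Hsp83, Hsp60A, Hsp26 and Hsp27 kept a reproducible or top-1949 promoter summit under all 8 alternatives other than the whole pooled list, and Hsc70-3, Hsc70-4, Hsp22 and Hsp23 had none under any of the 8. Hsc70-5 kept its summit under 5 of 8: it was lost in the upper 50% of the list, with the nearest start only and without replicate 3. Leaving out a replicate gave 2 to 3 constitutive genes, 2 small heat shock genes in both cases, 9 to 13 other chaperone genes and 11 to 11.1% of all genes. The whole pooled list gave 5 constitutive, 4 small heat shock and 29 other chaperone genes and 56.7% of all genes. The share of all genes was 9.58% with a window of 250 bp, 13.4% with 1000 bp, 5.74% in the upper 50% of the list, 8.68% with the nearest start only, 12.2% with any base of the peak in the window and 9.72% with canonical starts only, which was chosen after seeing the data. These settings change the windows or the list by construction. With 1 shared base in place of 50% reciprocal overlap, 9 rather than 8 strongest peaks had partners in both replicates; Hsp27 was the exception, because its pooled peak is short. No paired analysis was possible because all samples belong to 1 group. Depth is unknown, so a missing peak is not shown to be an absence of binding.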

Other observations

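Just outside the windows used for the 9 genes, a reproducible peak lay 605 bp past the end of Hsp83 (signal 115.2, rank 1810), 33 bp before the start of the neighbouring gene CG14966. It ranked 3366 in replicate 3 and 1362 in replicate 4. A relaxed summit 518 bp before the first start of Hsc70-3 had a pooled signal of 62.8 at rank 5719, with ranks of 6704 and 7693 in the replicates; a window of 1000 bp takes it in, and it was not reproducible. Replicate 3 placed its strongest Hsp22 summit elsewhere than the pooled list did, 222 bp before the first start, with a signal of 39.6 at rank 5187.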
